A study of Mus musculus with 32 samples.

Results

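The comparison set the livers of 8 mice that ate a high-cholesterol diet with rosuvastatin and ezetimibe together (HC+RSV+EZE) against the livers of 8 mice on the same diet with neither drug (HC). It was read across 8853 named genes, each detected on at least 8 of the 32 arrays analysed, so 16 of the 32 arrays enter it directly. The other 16 arrays were 8 of the diet with rosuvastatin alone (HC+RSV) and 8 of the diet with ezetimibe alone (HC+EZE). They shared the normalisation, the choice of genes and probes and the estimate of the spread, and served as the single-drug references. All 32 mice were females of the ApoE3Leiden strain, a transgenic line carrying a human apolipoprotein E variant that makes its plasma lipids respond to dietary cholesterol, and every group, the controls included, ate the high-cholesterol diet. Total RNA was taken from individual livers, so each array is 1 animal. The age of the mice, the doses, the length of treatment and the time of day of sampling are not given in the sources used here.

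Rosuvastatin is a statin, an inhibitor of the enzyme that commits carbon to cholesterol synthesis, and ezetimibe blocks the intestinal uptake of cholesterol by binding the transporter NPC1L1. When sterols in the endoplasmic reticulum are low, INSIG proteins release the SCAP carrier, SREBP-2 reaches the Golgi and is cleaved there, and the genes of cholesterol synthesis and uptake are transcribed; when sterols are high, hepatocytes turn cholesterol into bile acids and export it. The liver also runs a circadian clock, in which CLOCK and BMAL1 (gene Arntl) bind E-box elements and drive their own repressors, the period and cryptochrome genes and Ciart, as well as output genes such as Dbp and Usp2, and their transcripts rise and fall over the day.

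Levels are log2 intensities of Illumina bead arrays, with 1 probe a gene, and a difference of 1 is a doubling. The mean raw intensity ranged from 144.5 to 247.6 on the HC arrays and from 130.0 to 257.9 on the HC+RSV+EZE arrays. A mean of 11928 ± 699 probes (SD, n = 8) was detected in HC and of 11417 ± 485 in HC+RSV+EZE, which did not pass an exact permutation test over 12870 splits (two-sided p = 0.112). Both groups were present on each of the 6 chips, which allowed differences to be taken within a chip. On every chip the HC arrays sat at position A or B and the HC+RSV+EZE arrays at G or H, a mean of 6.5 positions apart, so position on the chip and group cannot be told apart. The HC+RSV arrays sat at B or C, near HC, and the HC+EZE arrays at F or G, near HC+RSV+EZE. HC+RSV+EZE shared no position with HC+RSV, nor did HC+EZE with HC, so the same limit holds for those comparisons. It holds only in part for HC+RSV+EZE against HC+EZE, which shared position G, and for HC+RSV against HC, which shared B. HC replicates 1 and 8 stood apart from the other arrays in their mean correlation with them (0.937 and 0.949), as did 1 HC+RSV and 1 HC+EZE array. Results were also computed without these 4 arrays. All 12 hepatocyte markers were detected on all 32 arrays.

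Few genes passed the test between HC+RSV+EZE and HC. Of 8853 genes, 4 (0.0452%) passed an adjusted p of 0.05 in limma, 3 higher (0.0339%) and 1 lower (0.0113%): the clock repressors Per1 and Ciart and the clock-driven ubiquitin-specific protease Usp2 rose, and Insig2, which encodes an endoplasmic reticulum retention protein of the SREBP pathway, fell. At an unadjusted p under 0.05 there were 658 genes (7.43%), of which 257 (2.9%) were higher and 401 (4.53%) lower. Scaling the arrays to equal medians in place of quantiles lowered the median difference of all genes from -0.01 to -0.18 and gave 9 genes past the threshold, 2 higher and 7 lower, of which Per1, Ciart and Insig2 were 3 while Usp2 was not among them.

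Per1 encodes a period protein that inhibits CLOCK and BMAL1. Its level in HC ran from 5.19 to 6.49 with a median of 5.76, and in HC+RSV+EZE from 6.50 to 7.98 with a median of 7.18. Every animal on both drugs was therefore above the highest HC animal, by a narrow margin at the closest pair. The difference was 1.38 ± 0.21 (SE), a 2.61-fold rise with an adjusted p of 0.00208, and a second Per1 probe gave 1.07 ± 0.20.

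Ciart encodes a repressor that binds CLOCK and BMAL1 and, in mouse liver, cycles with a large amplitude. Its level in HC ran from 4.82 to 5.85 with a median of 5.55, and in HC+RSV+EZE from 6.59 to 8.16 with a median of 6.97. The groups were separated by a clear gap. The rise was 1.78 ± 0.29, or 3.44-fold (adjusted p = 0.00208), with 1.70 ± 0.27 at the other Ciart probe.

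Usp2, a deubiquitinating enzyme whose transcript follows the clock in many tissues, showed the largest of the 4 differences. Its level in HC ran from 6.24 to 7.29 with a median of 6.93, and in HC+RSV+EZE from 8.12 to 9.57 with a median of 8.88. The groups did not overlap, and the rise was 1.94 ± 0.38, or 3.84-fold, with an adjusted p of 0.029. Its other probes were dim, detected on at most 3 arrays of either group, and gave 0.21 ± 0.12 and 0.10 ± 0.10. The call depended on single arrays, since the adjusted p exceeded 0.05 when any 1 of 8 arrays was left out (HC replicates 1, 2 and 4 and HC+RSV+EZE replicates 1, 3, 4, 5 and 7) and reached 0.0999. It was also 0.107 with equal medians, 0.106 with the authors' values, 0.0508 with no filter on detection and 0.0601 with the mean of the probes, which put the difference at 0.75.

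Insig2 encodes 1 of the 2 INSIG proteins and is, in liver, the one repressed by insulin and induced by fasting. Its level in HC ran from 10.28 to 11.08 with a median of 10.71, and in HC+RSV+EZE from 9.47 to 10.11 with a median of 9.66. All animals on both drugs lay below all HC animals. Insig2 fell by 1.02 ± 0.18 on the log2 scale, 2.02-fold, with an adjusted p of 0.00498. Its other probes gave -1.90 ± 0.50 and -0.98 ± 0.24. Per1, Ciart and Insig2 passed with each of the 16 compared arrays left out in turn. Ciart did not pass with the authors' values (2.31, adjusted p = 0.0845), and Insig2 did not with the mean of its probes (-1.30, adjusted p = 0.0601).

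**Figure D1:**
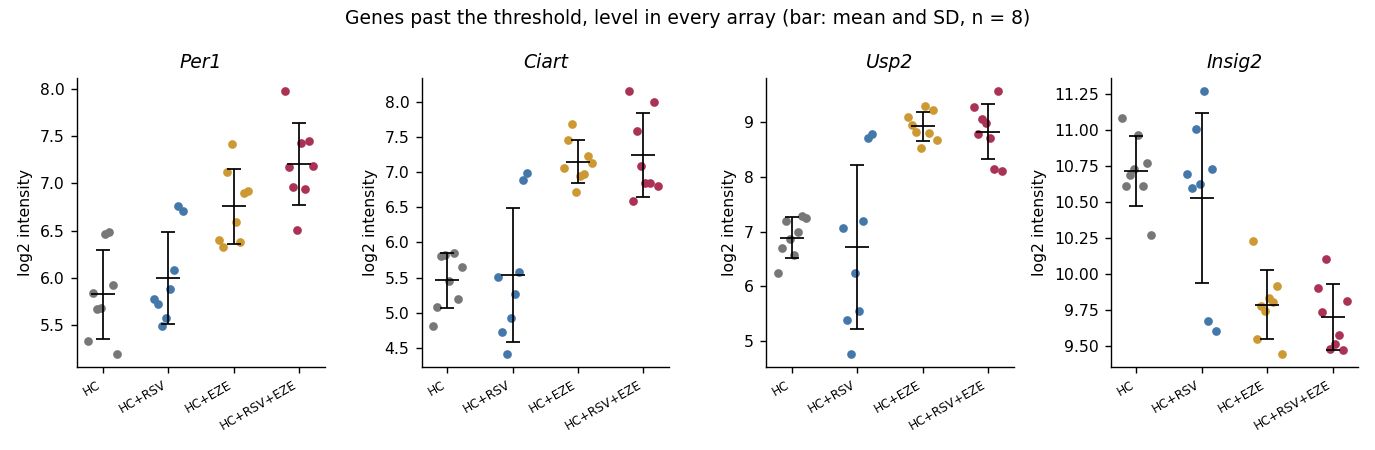
The log2 intensity of Per1, Ciart, Usp2 and Insig2 on every array (points) in the 4 groups, with the mean and SD of each group (bars, n = 8). HC+RSV+EZE did not overlap HC for any of the 4, and 2 HC+RSV arrays lay near the ezetimibe groups for Ciart (6.90 and 6.99) and Usp2 (8.71 and 8.78).

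The promoter sequences of the 3 genes that rose are shown because clock proteins reach their targets through short DNA elements. Each is a RefSeq window (assembly GRCm38.p6) of 300 bases, from 250 before to 50 after an annotated start, written 5′ to 3′ on the gene's strand, and capitals mark each E-box CACGTG. The windows are chr11:69098699-69098998 on the plus strand for the first annotated start of Per1, chr3:95882179-95882478 on the minus strand for Ciart, and chr9:44084670-44084969 on the plus strand for Usp2.
Per1: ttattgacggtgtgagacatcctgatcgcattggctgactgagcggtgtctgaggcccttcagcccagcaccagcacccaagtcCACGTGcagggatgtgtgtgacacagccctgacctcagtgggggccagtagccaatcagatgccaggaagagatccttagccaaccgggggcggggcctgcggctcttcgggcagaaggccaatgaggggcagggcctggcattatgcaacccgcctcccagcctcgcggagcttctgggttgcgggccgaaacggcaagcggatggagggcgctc
Ciart: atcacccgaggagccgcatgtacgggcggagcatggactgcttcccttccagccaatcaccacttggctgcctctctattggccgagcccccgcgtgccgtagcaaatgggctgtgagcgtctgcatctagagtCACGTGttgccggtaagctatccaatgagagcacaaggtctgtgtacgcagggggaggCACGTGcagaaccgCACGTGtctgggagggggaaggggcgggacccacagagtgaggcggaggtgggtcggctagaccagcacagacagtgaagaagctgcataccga
Usp2: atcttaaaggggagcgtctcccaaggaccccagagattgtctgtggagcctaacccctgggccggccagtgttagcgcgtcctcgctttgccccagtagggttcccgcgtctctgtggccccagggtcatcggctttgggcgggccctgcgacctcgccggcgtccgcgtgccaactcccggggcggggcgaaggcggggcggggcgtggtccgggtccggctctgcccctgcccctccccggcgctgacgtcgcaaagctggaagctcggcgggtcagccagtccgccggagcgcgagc

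The Per1 window held 1 E-box, which began 166 bases before the start, and the window at its second annotated start held none. The Ciart window held 3, beginning 116, 58 and 44 bases before the start. No E-box was found in the Usp2 window, or in any of the 3 Insig2 windows. CACGTG, which reads the same on both strands, occurred in 7.15% of the 32817 mouse promoter windows. Counted by gene, as for the clock genes below, it occurred in 2184 of 26994 genes. Of the 22 clock-list genes measured, 18 had a window, and 3 of the 18 held an E-box: Per1, Ciart and Tef, a PAR-domain factor. The D-box TTATGTAA, sought on both strands like the next element, was found in 1 gene, Per3, and in 298 of the 26994 genes (0.935% of all windows). The ROR element TAGGTCA was found in Arntl and Nfil3 and in 802 of the 26994 genes (2.61% of all windows). These are matches of letters in a window and not sites of binding.

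With chip as a fixed block the same 4 genes passed, and so did 6 further genes, all lower, for a total of 10 (0.113%), 3 higher (0.0339%) and 7 lower (0.0791%). At an unadjusted p under 0.05 the blocked fit held 879 genes (9.93%). For the 4 genes the blocked values were close to the unblocked ones. They were 1.25 ± 0.21 for Per1 (adjusted p = 0.00298), 1.76 ± 0.29 for Ciart (0.00298), 2.01 ± 0.39 for Usp2 (0.0231) and -1.04 ± 0.15 for Insig2 (0.000954). Within the single chips Per1 differed by 0.69 to 1.77, Ciart by 0.85 to 2.62, Usp2 by 1.28 to 2.86 and Insig2 by -1.28 to -0.82. Across all genes, 691 (7.81%) had the same sign on all 6 chips.

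**Figure D2:**
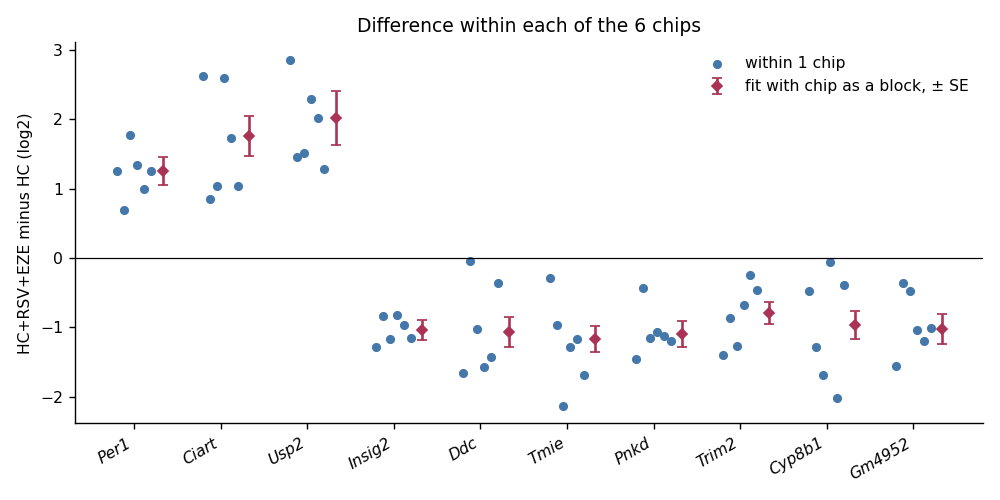
The difference HC+RSV+EZE minus HC (log2) within each of the 6 chips (circles) and from the blocked fit (diamonds, ± SE) for the 10 genes past the threshold there. All points of Per1, Ciart and Usp2 lie above 0 and all points of the other 7 genes below 0, the closest being Ddc at -0.05 and Cyp8b1 at -0.06.

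The 6 genes that passed with chip as a fixed block and not without it include enzymes of amine and bile acid metabolism. Ddc encodes aromatic L-amino acid decarboxylase, which makes dopamine and serotonin from their precursors. Its level in HC ran from 8.23 to 9.52 (median 8.90) and in HC+RSV+EZE from 6.63 to 8.67 (median 7.89), so the groups overlapped and 5 of 8 animals on both drugs lay below the HC range. Ddc was lower by 2.11-fold, with a blocked difference of -1.06 ± 0.21 (adjusted p = 0.0303, against 0.0648 without the block). Cyp8b1 encodes the sterol 12α-hydroxylase, which sets the share of cholic acid among bile acids. It ran from 11.21 to 12.67 (median 12.03) in HC and from 9.92 to 12.19 (median 11.19) in HC+RSV+EZE. This was a wide overlap, and the blocked difference was -0.97 ± 0.20, for which the adjusted p was 0.0343 (0.363 without the block). Its within-chip differences ran from -2.02 to -0.06, and Cyp8b1 did not pass the blocked fit once the 4 arrays that stood apart were left out.

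Pnkd, the gene of a paroxysmal movement disorder in humans, ran from 8.38 to 9.36 (median 8.77) in HC and from 7.35 to 8.16 (median 7.85) in HC+RSV+EZE. It was the only 1 of the 6 whose groups did not overlap. The blocked difference was -1.09 ± 0.19 (adjusted p = 0.00441, against 0.0658 without the block), and a second Pnkd probe gave -0.38 ± 0.13. Tmie, known for its part in the mechanotransduction channel of inner-ear hair cells, ran from 7.05 to 8.35 (median 7.71) in HC and from 6.04 to 7.50 (median 6.40) in HC+RSV+EZE. Tmie had a blocked difference of -1.17 ± 0.19 (adjusted p = 0.00298, against 0.0648), and 5 of 8 animals lay below the HC range. Trim2, an E3 ubiquitin ligase, ran from 7.003 to 8.31 (median 7.72) in HC and from 6.49 to 7.58 (median 6.96) in HC+RSV+EZE. Its blocked difference was -0.80 ± 0.16 (adjusted p = 0.0303, against 0.0658), again with 5 animals below the HC range. The predicted gene Gm4952 had the widest spread of these, from 8.10 to 10.26 (median 8.87) in HC and from 7.14 to 8.84 (median 8.15) in HC+RSV+EZE. Its blocked difference was -1.02 ± 0.21 (adjusted p = 0.0408, against 0.556).

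**Figure D3:**
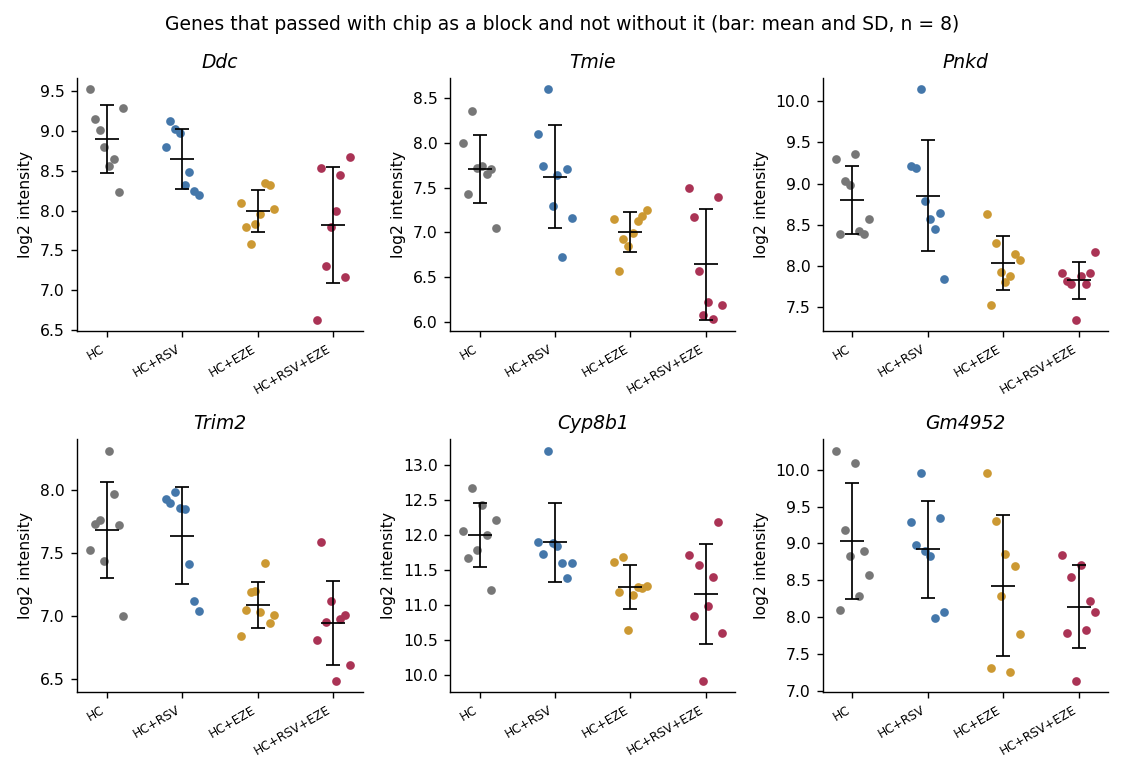
The log2 intensity of the 6 genes that passed with chip as a fixed block and not without it, on every array (points) in the 4 groups, with the mean and SD (bars, n = 8). The HC+RSV+EZE animals spread widely for Ddc (6.63 to 8.67), Tmie (6.04 to 7.50) and Cyp8b1 (9.92 to 12.19) and narrowly for Pnkd (7.35 to 8.16).

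Groups that did not overlap were rare: all 8 HC+RSV+EZE arrays were above HC for 6 genes (0.0678%) and below it for 5 (0.0565%). The genes above were Per1, Ciart, Usp2, Dbp, Ppp1r14a and Ccdc28b, and those below were Insig2, Pnkd, Clpx, Dnmt3b and Fam53c. Ccdc28b, Dnmt3b and Fam53c were named after their values were seen. Their differences were 0.52 ± 0.19, -0.47 ± 0.16 and -0.29 ± 0.11, and none of these 3 passed the test (adjusted p from 0.475 to 0.503). Ccdc28b stood at 0.33 without the 4 arrays that stood apart.

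The clock genes were read by role. These lists were chosen with earlier results of these data known, so their counts carry no test. Of the 3 measured activators none was above 0, against 48.2% of all genes, and their median was -0.67, against -0.01 for all genes. None passed the test. Clock itself ran from 7.14 to 8.42 (median 7.68) in HC and from 6.73 to 7.32 (median 7.04) in HC+RSV+EZE, a difference of -0.67 ± 0.16 (adjusted p = 0.108). Arntl, its partner, gave -0.70 ± 0.21 (adjusted p = 0.36), and it was detected on all 8 HC arrays and on 2 of 8 HC+RSV+EZE arrays, so its lower level is close to background. The activators' median lay below 0 on all 6 chips.

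Of the 10 measured repressors, 2 passed as higher (Per1 and Ciart), against 0.0339% of all genes. Of the 10, 8 were above 0, against 48.2% of all genes. The median was 0.19, which turned to -0.03 with equal medians. Per3 was higher by 0.65 ± 0.23 (adjusted p = 0.475), detected on 3 HC and 7 HC+RSV+EZE arrays. Per2, the third period gene, differed by 0.38 ± 0.23 with overlapping groups (adjusted p = 0.698). Of the 9 measured output genes, 1 passed as higher (Usp2), against the same 0.0339% of all genes, 6 were above 0 and the median was 0.21. Dbp, a PAR-domain transcription factor driven directly through E-boxes, ran from 9.98 to 11.27 (median 10.60) in HC and from 11.33 to 12.003 (median 11.49) in HC+RSV+EZE. The groups did not overlap, yet the difference of 0.95 ± 0.33 did not pass (adjusted p = 0.475). In HC+RSV, whose arrays share the fitted spread, Dbp ran from 8.20 to 11.83, and with only the HC and HC+RSV+EZE arrays in the fit Dbp passed (adjusted p = 0.036). Nampt, the NAD salvage enzyme, gave 0.57 ± 0.18 (adjusted p = 0.431), and Wee1, a mitotic kinase, 0.27 ± 0.11 (adjusted p = 0.566). Nfil3, which competes with the PAR-domain factors at D-boxes, gave -0.50 ± 0.24 (adjusted p = 0.656). The 16 other genes of the clock lists and of a fixed set of sterol and liver genes differed by -0.20 to 0.21, and none had an unadjusted p below 0.164. Median differences of both the repressors and the output genes were above 0 on all 6 chips.

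**Figure D4:**
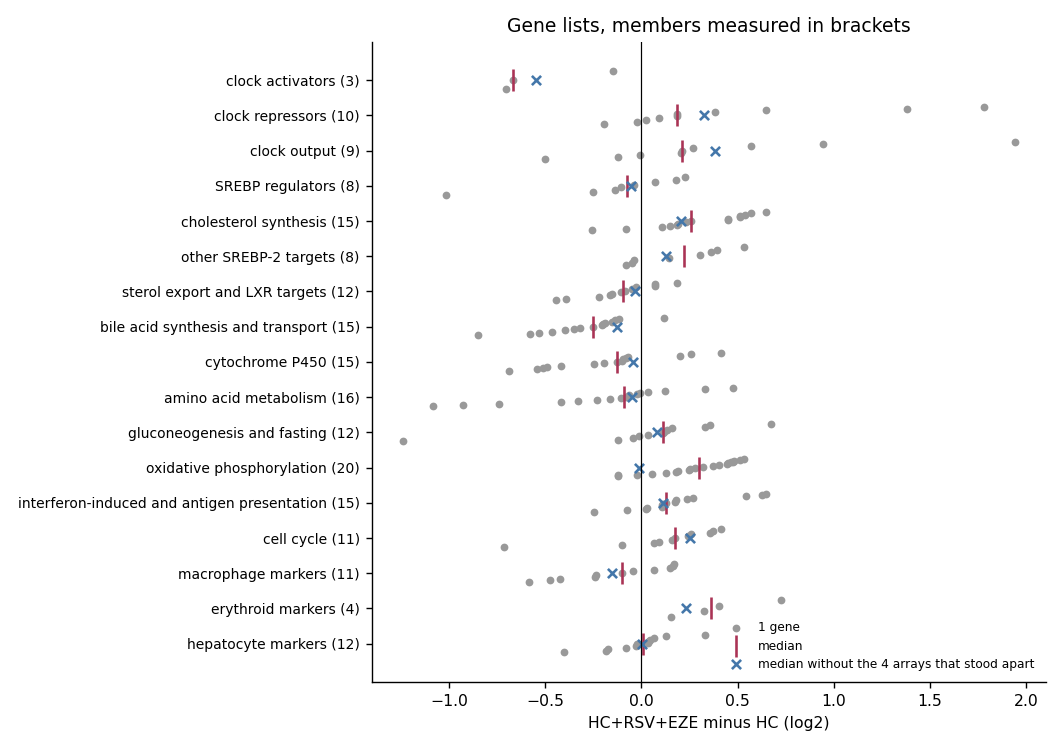
The difference HC+RSV+EZE minus HC (log2) of every measured member of 17 gene lists (grey points), with the list's median (red bar) and its median without the 4 arrays that stood apart (blue cross). Clock activators lie below 0 (median -0.67), 1 of 15 bile acid genes lies above 0, and the oxidative phosphorylation median goes from 0.30 to -0.01 without the 4 arrays.

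Among the 12 genes with the smallest p in each direction, those that did not pass in either fit covered several functions. Ifitm1, an interferon-induced membrane protein, ran from 4.72 to 5.58 (median 5.07) in HC and from 5.35 to 6.38 (median 5.84) in HC+RSV+EZE, a difference of 0.65 ± 0.14 (adjusted p = 0.0658). Coq10b, a coenzyme Q-binding protein of mitochondria, gave 0.86 ± 0.21 (adjusted p = 0.108), with 7 of 8 animals above the HC range. Nrg4, a growth factor of the epidermal growth factor family, gave 0.82 ± 0.20 (adjusted p = 0.108) and the proprotein convertase gene Pcsk4 0.93 ± 0.23 (adjusted p = 0.125). The other higher genes of this rank were Nmrk1, a nicotinamide riboside kinase, Sel1l3, Cdyl, the DNA-damage sensor Ddb2 and Ppp1r14a, with differences from 0.49 to 0.72 and adjusted p from 0.212 to 0.349. Ppp1r14a, an inhibitor of myosin phosphatase, was detected on 4 HC and 8 HC+RSV+EZE arrays. A second Ppp1r14a probe gave 0.10 ± 0.11, and other Ddb2 probes gave 0.31 ± 0.14 and -0.08 ± 0.15.

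On the lower side, Clpx, the unfoldase of the mitochondrial ClpXP protease, ran from 7.73 to 9.63 (median 8.44) in HC and from 6.98 to 7.67 (median 7.39) in HC+RSV+EZE. The groups did not overlap, and the difference of -1.09 ± 0.24 came to an adjusted p of 0.0658, or 0.054 in the blocked fit. A second Clpx probe gave -1.03 ± 0.21. Serpinb1a, an inhibitor of neutrophil proteases, gave -0.79 ± 0.18 (adjusted p = 0.1) and Rcan1, an inhibitor of calcineurin, -0.73 ± 0.17 (adjusted p = 0.089). G3bp2, a stress granule protein, gave -0.69 ± 0.17 (adjusted p = 0.119), and 7 of its 8 values lay below the HC range. Its other probes gave smaller differences of -0.50 ± 0.17, -0.36 ± 0.13 and -0.14 ± 0.12, the last detected on 3 HC and 0 HC+RSV+EZE arrays. The sorting nexin Snx11 gave -0.53 ± 0.12 (adjusted p = 0.0843) and the choline kinase Chka -0.53 ± 0.13 (adjusted p = 0.125), the latter detected on 6 HC and 2 HC+RSV+EZE arrays. With chip as a random block Clpx, Serpinb1a, Rcan1, Snx11, Clock, Ifitm1, Coq10b, Nrg4 and Pcsk4 passed (adjusted p from 0.0349 to 0.0483). Cyp8b1 and Gm4952, which passed with chip as a fixed block, did not pass with chip as a random block. Over 31 alternative settings, left-out arrays included, Cyp8b1 passed in 1 and Gm4952 in 2.

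In the sterol pathway Insig2 was the only gene of the lists to pass without the chip block. Of 8 measured SREBP regulators 3 were above 0, with a median of -0.07, and Srebf2, the gene of SREBP-2, gave 0.23 ± 0.16 (adjusted p = 0.723). Of 15 measured cholesterol synthesis genes 13 were above 0 with a median of 0.26, and none passed the test. The median was 0.06 with chip as a block and -0.01 with equal medians, and within chips it was above 0 on 2 and below 0 on 4, from -0.82 to 0.59. Sqle, the squalene epoxidase, ran from 5.20 to 7.99 (median 5.91) in HC and from 5.11 to 8.98 (median 6.61) in HC+RSV+EZE. The groups overlapped almost wholly, and its difference of 0.57 ± 0.50 became 0.06 with chip as a block. Lss, which closes the sterol ring, gave 0.65 ± 0.30 (adjusted p = 0.65), Fdps, which makes farnesyl diphosphate, 0.54 ± 0.40, and Cyp51, the lanosterol demethylase, 0.45 ± 0.34. Without the 4 arrays that stood apart Fdps stood at 0.26 and Srebf2 at 0.15. Of 8 other SREBP-2 targets 5 were above 0 with a median of 0.22, again falling to 0.03 with chip as a block. Tmem97, a sterol-regulated membrane protein, gave 0.53 ± 0.17 (adjusted p = 0.431). Among the 12 sterol export genes 3 were above 0 (median -0.10), and none reached an unadjusted p under 0.05.

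Bile acid genes lay mostly below 0: of 15 measured, 1 was above 0, and the median was -0.25, with -0.22 with chip as a block and -0.12 without the 4 arrays that stood apart. None passed without the block and 1, Cyp8b1, passed as lower with it, against 0.0791% of all genes. The list's median was below 0 on all 6 chips. Cyp7a1, whose enzyme limits the rate at which bile acids are made, ran from 10.56 to 11.78 (median 11.05) in HC and from 9.95 to 11.48 (median 10.84) in HC+RSV+EZE. These ranges overlapped, and the difference was -0.40 ± 0.27 (adjusted p = 0.713). Hsd3b7, a later step of the same route, gave -0.53 ± 0.15 (adjusted p = 0.326) with 5 of 8 animals below the HC range. Acox2, which shortens the bile acid side chain in peroxisomes, gave -0.58 ± 0.20 (adjusted p = 0.475). Without the 4 arrays that stood apart Cyp7a1 stood at -0.24 and Acox2 at -0.38.

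Of 15 measured cytochrome P450 genes 3 were above 0, with a median of -0.13 (-0.04 without the 4 arrays), and none passed. Cyp3a11, the main drug- and bile-acid-inducible P450 of mouse liver, ran from 12.12 to 13.50 (median 12.25) in HC and from 11.40 to 12.25 (median 11.78) in HC+RSV+EZE. Although 7 of 8 animals on both drugs lay below the HC range, the difference of -0.69 ± 0.19 had an adjusted p of 0.326. Cyp2c37 gave -0.51 ± 0.26 (adjusted p = 0.671). Without the 4 arrays these differences were -0.44 and -0.31. The 17 measured conjugation and NRF2 genes were balanced, with 10 above 0 and a median of 0.04.

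Glucose, fat and amino acid metabolism held no call without the chip block. G6pc, the last enzyme of glucose release, had the largest difference of its list. It ran from 10.51 to 11.72 (median 11.13) in HC and from 9.26 to 10.82 (median 9.80) in HC+RSV+EZE, with 6 of 8 animals below the HC range. The difference was -1.24 ± 0.43 (adjusted p = 0.475). Pck1, an earlier gluconeogenic enzyme, lay in the other direction at 0.67 ± 0.33 (adjusted p = 0.666), and of the 12 measured genes of gluconeogenesis and fasting 8 were above 0 (median 0.11). Fatty acid synthesis (13 measured, 9 above 0, median 0.12 and -0.07 with chip as a block) and fatty acid oxidation (16 measured, 5 above 0, median -0.06) held no gene with an unadjusted p under 0.05. Of 16 measured amino acid genes 4 were above 0 with a median of -0.09. Gldc, the glycine cleavage decarboxylase, gave -0.93 ± 0.24 (adjusted p = 0.157, and 0.0129 without the 4 arrays that stood apart) with 7 of 8 animals below the HC range, Oat, the ornithine aminotransferase, -0.74 ± 0.32 and Gpt, the alanine aminotransferase, -0.33 ± 0.13. Of 20 measured oxidative phosphorylation genes 17 were above 0 with a median of 0.30, but the median was -0.01 without the 4 arrays that stood apart and above 0 on 3 of 6 chips. Its leading members were the complex I subunits Ndufb5 (0.51 ± 0.22) and Ndufs4 (0.44 ± 0.21) and the cytochrome oxidase subunit Cox7b (0.53 ± 0.28), none of which passed (adjusted p from 0.595 to 0.671). Without the 4 arrays they stood at 0.17, 0.099 and 0.061.

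Of 15 measured interferon-induced and antigen presentation genes 13 were above 0 with a median of 0.13 (-0.09 with equal medians), and none passed. Ifitm2 and Ifitm3, relatives of Ifitm1 that hinder virus entry, gave 0.63 ± 0.25 and 0.54 ± 0.22 (adjusted p of 0.556 and 0.57), and 0.22 and 0.18 without the 4 arrays that stood apart. Of 11 measured cell cycle genes 9 were above 0 (median 0.17), with the replication clamp Pcna at 0.37 ± 0.13 (adjusted p = 0.475). The heat shock and endoplasmic reticulum stress list (13 measured, 5 above 0, median -0.12) held the chaperone genes Hspe1 at 0.58 ± 0.27 and Dnajb1 at -0.37 ± 0.15; without the 4 arrays Hspe1 stood at 0.17. The immediate early list (9 measured, 4 above 0, median -0.05) held the phosphatase Dusp1 at -0.51 ± 0.22 and Zfp36, which destabilises messenger RNA, at 0.34 ± 0.15, with Dusp1 at -0.29 without the 4 arrays. Acute phase genes (16 measured, 9 above 0) had a median of 0.01.

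Markers of other liver cells were compared as well, and in whole liver fewer cells of a type and less RNA per cell cannot be told apart. Hepatocyte markers had a median of 0.01, and their summed linear level ran from 168454 to 188430 in HC and from 172744 to 191752 in HC+RSV+EZE. Of 11 measured macrophage markers 7 were below 0 (median -0.10, and 0.05 with chip as a block), and their sum ran from 5961 to 19522 in HC and from 4875 to 12601 in HC+RSV+EZE. The Kupffer cell genes Vsig4 (-0.59 ± 0.20), Clec4f (-0.47 ± 0.19) and Adgre1 (-0.42 ± 0.25) did not pass (adjusted p from 0.475 to 0.68), and Adgre1 stood at -0.24 without the 4 arrays. All 4 measured erythroid markers were above 0, with a median of 0.36 (0.23 without the 4 arrays) and a summed level from 3271 to 15478 in HC and from 11787 to 20750 in HC+RSV+EZE. The hemoglobin gene Hba-a1 gave 0.73 ± 0.26 (adjusted p = 0.475), and 0.26 without the 4 arrays. Medians were 0.34 over 4 neutrophil, 0.15 over 12 stellate and fibroblast, 0.06 over 11 endothelial, -0.02 over 7 lymphocyte and -0.07 over 4 cholangiocyte markers, with no call in any of them. The part of these markers in the 4 calls was not tested.

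Each single drug was set against the same HC animals, so the values below share their controls with those above and are given side by side. Usp2 differed from HC by 2.04 with ezetimibe alone and by -0.17 with rosuvastatin alone, against 1.94 with both. Ciart differed by 1.69 and 0.08, against 1.78, and Per1 by 0.94 ± 0.21 and 0.17 ± 0.21, against 1.38. For Insig2 the values were -0.93 and -0.19, against -1.02. Ddc, Tmie, Pnkd, Trim2, Cyp8b1 and Gm4952 lay between -0.91 and -0.59 with ezetimibe alone and between -0.25 and 0.05 with rosuvastatin alone. Of the 24 genes with the smallest p, 22 were larger in size with ezetimibe than with rosuvastatin alone. The 24 were picked for their difference between HC+RSV+EZE and HC, and the share over all genes is not given here. The HC+EZE arrays also sat nearer on the chip to HC+RSV+EZE than the HC+RSV arrays did, so position and drug cannot be told apart in this count. Ifitm1 differed by 0.16 with ezetimibe and -0.12 with rosuvastatin against 0.65 with both, and G3bp2 by -0.19 and -0.25 against -0.69.

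**Figure D5:**
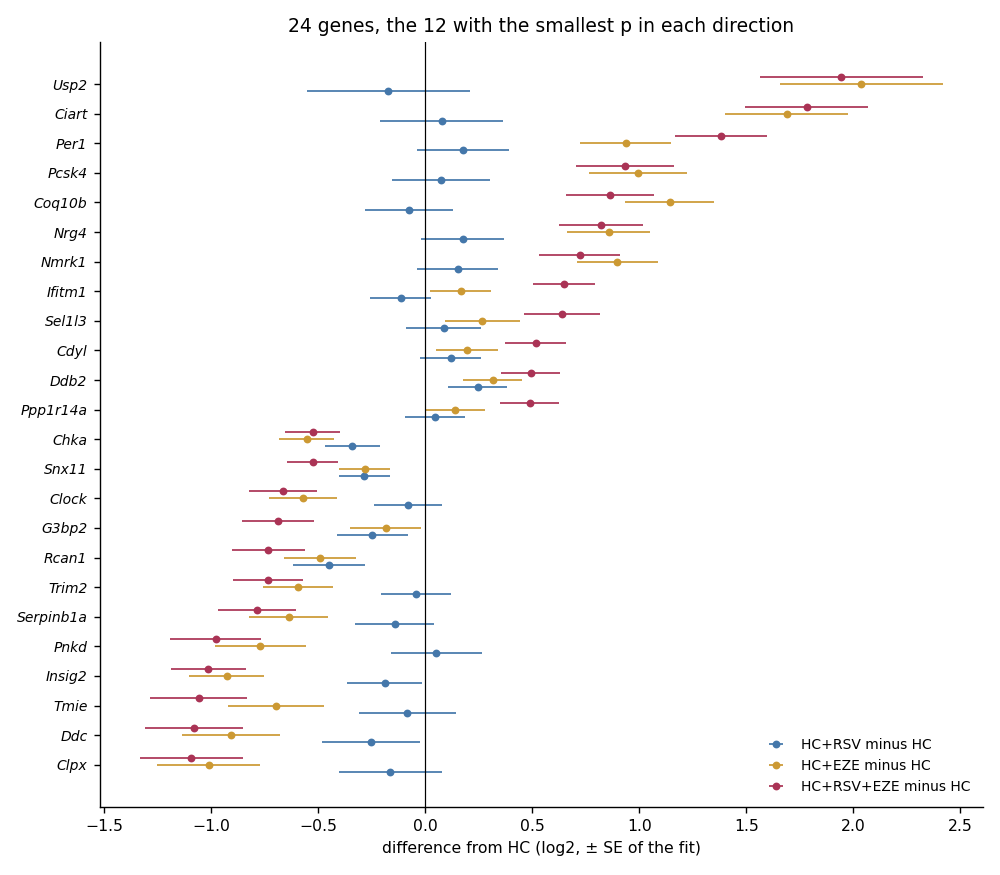
The difference from HC (log2, ± SE of the fit) of the 24 genes with the smallest p, 12 in each direction, for rosuvastatin alone (blue), ezetimibe alone (gold) and both drugs (red), all against the same 8 HC arrays. Red and gold lie close for Usp2 (1.94 and 2.04) and Insig2 (-1.02 and -0.93) and apart for Ifitm1 (0.65 and 0.16) and G3bp2 (-0.69 and -0.19).

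Whether adding rosuvastatin to ezetimibe altered the liver was tested directly. Between HC+RSV+EZE and HC+EZE 0 of 8853 genes (0%) passed in limma, with or without chip as a block, while 151 (1.71%) had an unadjusted p under 0.05, or 283 (3.2%) in the blocked fit. The difference between these groups was -0.10 for Usp2 (95% interval -0.87 to 0.68), 0.09 for Ciart (-0.49 to 0.68) and -0.09 for Insig2 (-0.44 to 0.27). Per1 was higher with both drugs than with ezetimibe alone by 0.45 (0.01 to 0.88), Ifitm1 by 0.48 (0.19 to 0.77), and G3bp2 stood at -0.50 (-0.84 to -0.16). These 3 intervals leave out 0, but none of the 3 passed after adjustment. All 3 were among the genes with the smallest p between HC+RSV+EZE and HC, on the same HC+RSV+EZE arrays. Intervals for genes chosen in this way carry no test of what rosuvastatin added. For Usp2 the interval allows a difference of up to -0.87, so the absence of calls does not show that the groups were alike.

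More genes passed against rosuvastatin alone. The HC+RSV arrays sat at position B or C and the HC+RSV+EZE arrays at G or H, so position and group cannot be told apart here either. Between HC+RSV+EZE and HC+RSV 5 genes passed (0.0565%), 4 higher (0.0452%) and 1 lower (0.0113%). Ciart was higher by 1.71 (adjusted p = 0.00917), Usp2 by 2.12 (0.00985), Per1 by 1.21 (0.00985) and Ifitm1 by 0.76 (0.0138), and Pnkd was lower, at -1.03 (0.047). Insig2 stood at -0.82 and an adjusted p of 0.0551, which was 0.00406 in the blocked fit. With the block 47 genes passed (0.531%), 29 higher (0.328%) and 18 lower (0.203%), the 5 among them. Of the 47, 24 had an unadjusted p under 0.05 against HC, as did 7.43% of all genes. Both comparisons use the same HC+RSV+EZE arrays, so they are not independent. No gene passed, however, when the fit held only the 16 arrays of these 2 groups, while 621 had an unadjusted p under 0.05. Left out in turn, HC+RSV replicates 3, 6 and 8 gave 3, 8 and 18 genes.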

How the data were processed

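RNA of individual livers was labelled with biotin and hybridised to Illumina bead arrays, per the labels' protocols, which speak of 48 samples; those outside the 4 groups were not analysed here. The deposited values per probe are an intensity on a linear scale, with no log and with values below 0, and a detection value, a fraction from 0 to 1. The authors' processed table, in log2, holds 15505 of the 25697 probes; limma is named in the submitters' processing notes, while its settings are not given in the sources used here.

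Intensities were background-corrected (normexp with detection p, offset 16), quantile-normalised and put on a log2 scale in limma 3.58.1 under R 4.3.3. Probes with a detection value over 0.95 on at least 8 of 32 arrays were kept (12844, of which 12026 had a gene name and 818 had none). Of 14557 named probes 14548 took their symbol through the Entrez number, 7 through an accession and 2 as given, and the brightest probe stood for a gene. A model of 4 groups over 32 arrays (28 residual degrees of freedom, lmFit and eBayes) was fitted to 8853 genes, with Benjamini-Hochberg adjustment over all of them and a threshold of 0.05. SE is that of the fit. Precision depends on how many arrays there are, and the median SE was 0.16. The fit was tested on simulated data. Alternatives covered background correction, scaling, the authors' values, the filter, probe choice, chip, array position, array weights, the groups fitted and left-out arrays.

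Members and gene lists were chosen with earlier results of these data known, so counts over lists carry no test. Genes named are those past the threshold in either fit, the 12 with the smallest p in each direction, clock-list members, 15 sterol and liver genes and up to 4 leading members of each other list.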

Additional observations from a re-analysis of the deposited data

Results flagged for a closer look

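In 5 of 132 groups of 8 arrays examined (2 groups for each gene named), 1 array stood far from the others by Dixon's test at its 95% value; chance alone gives such an array in about 5% of groups. For Pnkd, HC+RSV+EZE replicate 4 was lowest at 7.35, with the next at 7.78. The same animal was lowest for Hsd3b7 at 11.76, with the next at 12.31. For Clock, HC replicate 1 was highest at 8.42, with the next at 7.74, and for Fam53c the same array was highest at 7.68, with the next at 7.12; it is 1 of the 4 arrays that stood apart, and without those 4 the differences were -0.55 for Clock and -0.22 for Fam53c. For Ndufs4, HC+RSV+EZE replicate 2 was lowest at 10.45, with the next at 10.62.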

How the results depend on the processing

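Array position as a covariate could not be separated from the groups, since no position held both and they lay 6.5 positions apart on average. Over the 66 named genes followed, the median SE rose from 0.21 to 1.03. No gene passed in either comparison with calls (0 and 0, with 1069 and 936 at an unadjusted p under 0.05). Of the 66 genes, 30 changed sign. These were Usp2 -1.84, Insig2 0.47, Tmie 1.498, Pnkd 1.69, Trim2 1.30, Cyp8b1 1.11, Gm4952 2.37, Nrg4 -0.41, Ddb2 -0.55, Clpx 0.81, Clock 1.69, G3bp2 0.046, Per2 -0.32, Per3 -0.085, Arntl 0.61, Dbp -1.42, Nampt -0.29, Nfil3 2.38, Hsd3b7 1.35, G6pc 2.36, Ndufb5 -0.13, Ndufs4 -0.59, Gldc 1.78, Ifitm2 -0.063, Pcna -1.15, Dnajb1 0.49, Hspe1 -0.90, Zfp36 -0.42, Ccdc28b -0.89 and Fam53c 0.52. Per1 stood at 1.46 ± 1.09 and Ciart at 0.01 ± 1.42. In every other setting run, the 66 genes kept their direction; of 1976 such values, 80 were past the threshold where the reported one was not and 14 were no longer past it.

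For HC+RSV+EZE against HC, the 4 genes became 9 with equal medians, 2 with the authors' values (Per1 and Insig2), 2 with the mean of probes (Per1 and Ciart), 3 with no filter (without Usp2), 10 with chip as a fixed block, 17 with chip as a random block, 8 with array weights, 9 with only the compared groups, 9 without the 4 arrays that stood apart and 14 without them and with chip as a block. Leaving out 1 array gave 3 to 10 (7 without HC replicate 3, 7 without HC replicate 5, 10 without HC replicate 6 and 9 without HC+RSV+EZE replicate 2). For HC+RSV+EZE against HC+RSV, the 5 genes became 3 with equal medians, 47 with chip as a fixed block, 33 with chip as a random block, 14 with array weights, 0 with only the compared groups, 13 without the 4 arrays and 118 without them and with chip as a block, and 3 to 18 without 1 array. Against HC+EZE the count was 0 in all settings run. The causes were not tested.

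Groups share replicate numbers, but 0 of 8 pairs shared a chip and 2 of 8 arrays correlated best with their own number, so the numbers were not taken as pairs; with a replicate block 9 genes passed against HC and 16 against HC+RSV. The median SE over all genes was 0.16. Some of the named genes, among them Arntl, Per3, Chka and Ppp1r14a, were detected on only part of the arrays. Arntl, Chka, Pcna and Wee1 were not kept by a stricter filter on detection.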

Other observations

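HC+RSV animals were not alike in the genes that passed. They enter the comparison only through the shared normalisation, the choice of genes and probes and the spread. Replicates 7 and 8 stood at 6.90 and 6.99 for Ciart, at 8.71 and 8.78 for Usp2 and at 6.76 and 6.70 for Per1, inside the range of the animals on both drugs. Replicates 6 and 8 stood at 9.68 and 9.61 for Insig2, also inside that range.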
